A study of Homo sapiens with 2 samples.

Results

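Histone lysine methyltransferases are the enzymes that place methyl groups on lysines of the histone tails and core, and 34 genes of this kind were taken by name: the SET domain enzymes and their close relatives, plus DOT1L, grouped by the residue they methylate. Of these, 33 were measured by 100 probe sets, out of 17689 genes and 44672 probe sets in all; ASH1L was not analysed here. A gene entered through every probe set that the platform annotation gives to that gene alone. The arrays were Affymetrix Human Genome U133 Plus 2.0 arrays of LNCaP cells, a human prostate cancer line that grows in response to androgen. The control cells were infected with pLKO.1 virus without an insert and the knockdown cells with virus carrying a short hairpin RNA (shKDM4A) that targets KDM4A; both viruses were packaged in HEK293T cells, and RNA was taken on day 3. Each group had 1 array and 1 hairpin construct was used, so replicate error is unknown and no p-value is given, and a hairpin's effect on KDM4A cannot be told apart from its other effects.

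KDM4A removes methyl groups from lysine 9 and lysine 36 of histone H3, the residues that the SUV39H, EHMT, SETDB, SETD2 and NSD enzymes methylate. Methylation of H3 lysine 4 (H3K4), of lysine 36 (H3K36) and of the core residue H3K79 is found on transcribed genes and their control regions. Methylation of lysine 9 (H3K9) and lysine 27 (H3K27), and trimethylation of lysine 20 of histone H4 (H4K20), are found on silenced or compacted chromatin. The level of several of these enzymes, EZH2 among them, is known to be higher in dividing cells than in resting ones. The question asked here is how the transcripts of the writers of histone methylation read when an eraser is reduced.

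Every value is the knockdown minus the control on the log2 scale. The authors' values were centred on the mean of the 2 arrays, so each probe set reads the same distance above 0 on one array as below 0 on the other, and no level is left. The ± SD beside a gene is how far its probe sets differ from each other; it holds nothing about cultures, and having so few arrays limits the precision. KDM4A itself was 2.26-fold lower in the knockdown (-1.18 ± 0.40, SD over 2 probe sets); its control values were 0.45 and 0.73 and its knockdown values -0.45 and -0.73. The median over all genes was 0.020, with quartiles of -0.14 and 0.18. Luminal prostate markers had a median of 0.11 (8 of 10 measured, with KRT19 at 1.35 ± 2.02 and FOXA1 at -1.16 ± 1.75, each over 2 probe sets). The medians were 0.060 for fibroblast and smooth muscle markers (9 of 10; COL1A1 at 0.73 ± 0.76 over 4 probe sets, ACTA2 at 2.14 ± 2.42 over 2), 0.012 for leukocyte markers (5 of 8; CD3D at 0.24, NKG7 at -0.14) and 0.015 for embryonic kidney markers, the origin of the packaging cells (5 of 8; NEFL at 0.49 ± 0.22 over 3 probe sets, SIX2 at 0.40 ± 0.47 over 2). Whether any of these cell types was present cannot be read from centred values.

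The family as a whole lay close to 0, and 4 of its genes lay apart on the lower side. No member was 2-fold higher or 2-fold lower, against 1.16% and 1.44% of all genes. EZH2, KMT5B, SETD6 and SMYD2 were at least 1.5-fold lower, which is 12.1% of the 33 members against 4.38% of all genes, and no member was 1.5-fold higher, against 4.3%. The median of the members was -0.065, against 0.020 over all genes, and 21 of 33 lay below 0, against 46.3% of all genes. These shares describe the 2 arrays and do not show that the family differs from other genes. The remaining 29 members ran from -0.29 (SUV39H2) to 0.33 (KMT2B), and none of them came near the 1.5-fold line, which SMYD2 passed at -0.65. This gap holds for means over all probe sets. Without probe sets named _s_at or _x_at, which can match several transcripts, NSD2 lay at -0.60, past the line, and SMYD2 at -0.034. EZH2 then had no probe set left.

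**Figure D1:**
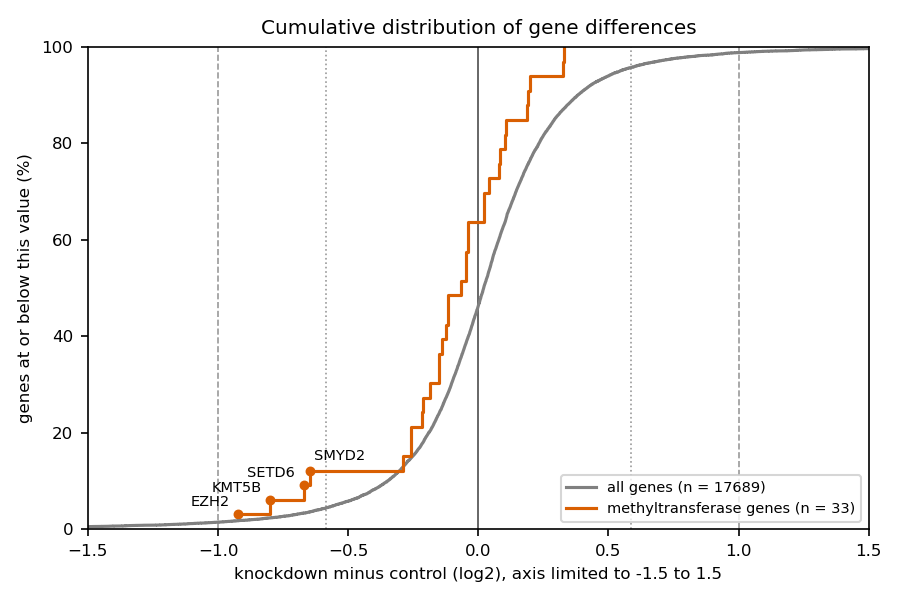
The cumulative share of genes (vertical axis, percent) is plotted against the knockdown minus control difference (horizontal axis, log2) for all 17689 genes in grey and the 33 measured methyltransferase genes in orange; dotted and dashed lines mark 1.5-fold and 2-fold. The orange line ends at 0.33 on the upper side, while EZH2, KMT5B, SETD6 and SMYD2 stand apart between -0.92 and -0.65 on the lower side.

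The promoters of those 4 genes are shown here because they lay lowest together, with EZH1, the close relative of EZH2, for comparison. RefSeq's promoter table (GRCh38.p14) matched 31 of the 34 listed genes, with 44 windows of 300 bases, from 250 before to 50 after each start site. The windows were searched on both strands for short words: the E2F words TTTGGCGC, TTTCGCGC, TTCCCGCC and TTGGCGCC, bound by the factors that drive entry into replication; the CHR words TTTGAA and TTCGAA, an element of genes transcribed late in the cell cycle; and CCAAT, the word of the factor NF-Y. The 250 bases before the first listed start of each gene are printed 5′ to 3′ on the gene's strand, with every matched word in capitals. They lie at chr7:148884292-148884541 (minus strand), chr16:58515267-58515516 (plus), chr11:68213649-68213898 (minus), chr1:214280909-214281158 (plus) and chr17:42745041-42745290 (minus).

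EZH2: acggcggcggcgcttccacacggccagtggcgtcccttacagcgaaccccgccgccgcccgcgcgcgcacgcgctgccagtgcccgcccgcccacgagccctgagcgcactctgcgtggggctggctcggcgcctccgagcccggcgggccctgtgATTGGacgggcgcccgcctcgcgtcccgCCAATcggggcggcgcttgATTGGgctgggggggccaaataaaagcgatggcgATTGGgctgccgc
SETD6: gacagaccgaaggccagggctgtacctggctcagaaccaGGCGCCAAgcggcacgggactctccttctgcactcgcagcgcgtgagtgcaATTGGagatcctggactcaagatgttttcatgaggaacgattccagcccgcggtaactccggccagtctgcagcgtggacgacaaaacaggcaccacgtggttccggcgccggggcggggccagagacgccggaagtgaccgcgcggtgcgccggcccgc
KMT5B: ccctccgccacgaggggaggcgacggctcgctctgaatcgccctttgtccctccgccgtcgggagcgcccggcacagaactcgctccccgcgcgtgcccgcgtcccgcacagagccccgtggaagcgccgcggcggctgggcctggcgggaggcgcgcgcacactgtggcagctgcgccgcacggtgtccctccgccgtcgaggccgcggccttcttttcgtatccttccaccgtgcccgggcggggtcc
SMYD2: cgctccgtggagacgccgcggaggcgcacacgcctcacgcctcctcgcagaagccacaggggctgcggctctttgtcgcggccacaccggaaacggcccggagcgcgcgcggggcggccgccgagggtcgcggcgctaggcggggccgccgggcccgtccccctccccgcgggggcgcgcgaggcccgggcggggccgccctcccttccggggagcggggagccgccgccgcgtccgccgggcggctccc
EZH1: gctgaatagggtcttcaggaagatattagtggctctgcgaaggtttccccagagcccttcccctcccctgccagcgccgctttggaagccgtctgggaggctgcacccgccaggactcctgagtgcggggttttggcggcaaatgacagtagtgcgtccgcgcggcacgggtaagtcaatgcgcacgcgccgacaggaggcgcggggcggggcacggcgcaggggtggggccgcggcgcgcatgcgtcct

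The EZH2 stretch holds CCAAT 4 times, counting both strands, the first beginning at position -94 and the last at -13 from the start. Only 0.991% of all 35116 windows hold 4 or more, and among the members' windows only those of EZH2 and SMYD3 do; SMYD3 lay at 0.039. This count was made after the matches had been seen. SETD6 holds CCAAT once, and no searched word occurs in the printed stretches of KMT5B, SMYD2 or EZH1, although SMYD2 has a CCAAT that begins at position 34. The guanine and cytosine content of the stretches was 75.6% for EZH2, 65.6% for SETD6, 75.6% for KMT5B, 83.2% for SMYD2 and 67.6% for EZH1.

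An E2F word was found in 3 of the 44 member windows (6.82%), against 4.95% of all windows. The 3 genes were EZH2, SETD6 and KMT5A. The words are printed within 30 bases each, in capitals, at chr7:148884272-148884301 (minus strand), chr16:58515295-58515324 (plus) and chr12:123384075-123384104 (plus).

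EZH2: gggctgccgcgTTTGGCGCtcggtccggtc
SETD6: gctcagaaccaGGCGCCAAgcggcacggga
KMT5A: aggcgggaggcGGCGCCAAtcggggcgagc

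Counted from the start site as base 1, the word of EZH2 begins at position 2, that of SETD6 at -211 and that of KMT5A at -46, where it shares bases with a CCAAT. EZH2 and SETD6 lay at -0.92 and -0.67, while KMT5A lay at 0.10, so genes with this word did not all read lower. CHR words occurred in 5 member windows (11.4%, against 16.4% of all windows) and CCAAT in 16 (36.4%, against 34.6%). PRDM2, NSD2, SUV39H2 and KMT5A held a CHR word. By means over all probe sets none of them was 1.5-fold lower, against 4.38% of all genes, so this count says nothing about the word. Without _s_at and _x_at probe sets NSD2 lay at -0.60, past that line. A match is only a run of letters, and no binding was measured.

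EZH2 and EZH1 are the alternative catalytic subunits of Polycomb repressive complex 2 (PRC2), which methylates H3K27. EZH2 was 1.90-fold lower in the knockdown, the largest difference in either direction among the 33 members by means over probe sets; by medians KMT5B lay lower, at -0.96. Its only probe set read 0.46 in the control and -0.46 in the knockdown, a difference of -0.92. Only 1.73% of all genes lay lower. EZH1 read -0.34, -0.11, 0.035 and 0.25 over its 4 probe sets, a mean of -0.041 ± 0.25 with values on both sides of 0. EZH2 minus EZH1 was -0.88, but the EZH2 value has no spread of its own because it rests on a single probe set of a kind that can match several transcripts.

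Genes of mitosis and proliferation were lower in the same comparison. All 20 measured lay below 0, against 46.3% of all genes, and 14 were at least 2-fold lower, against 1.44%. The median was -1.38, and TOP2A at -3.53 ± 0.19 (2 probe sets) and NDC80 at -3.44 lay lowest. Replication genes had a median of -0.51, with 20 of 20 below 0 and 6 at least 2-fold lower, among them RRM2 at -2.55 ± 0.80 and CDC6 at -1.75 ± 0.54 (2 probe sets each). Targets of p53 had a median of 0.75 over 9 of 10 genes, with 3 at least 2-fold higher, against 1.16% of all genes. The highest were CDKN1A at 1.93 and FAS at 1.89 ± 0.69 over 5 probe sets. Some genes of these lists were known from earlier results of these data to lie apart. Their part in the EZH2 value was not tested, and fewer dividing cells and less RNA per cell cannot be told apart in bulk RNA.

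The other PRC2 genes did not share one direction. Of 11 measured (12 listed), 5 lay below 0 and the median was 0.019. None was 2-fold apart, against 1.16% higher and 1.44% lower of all genes. At 1.5-fold, 2 of the 11 were higher, against 4.3% of all genes, and none was lower, against 4.38%. MTF2, which guides the complex to unmethylated CpG-rich DNA, lay at 0.85 ± 0.26 over 5 probe sets, and JARID2, an accessory subunit, at 0.64 ± 0.33 over 3. These were the members of that list farthest from 0, and both lay on the opposite side from EZH2. The core subunit EED read -0.35 and 0.39 on its 2 probe sets (mean 0.019 ± 0.52), which leaves it with no settled direction. SUZ12 lay at -0.35 ± 0.30 over 2 probe sets. RBBP4, a histone chaperone shared with other complexes, lay at -0.57 ± 0.49 over 6 probe sets.

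H4K20 is monomethylated by KMT5A, and KMT5B and KMT5C add the further methyl groups that mark heterochromatin. KMT5B was 1.74-fold lower (-0.80 ± 0.60, SD over 3 probe sets). Its control values were 0.48, 0.66 and 0.067 and its knockdown values the same below 0, so the probe sets differed by -0.96, -1.31 and -0.13. All lay below 0, with the third near it. KMT5C read -0.50 and 0.27 (mean -0.12 ± 0.54), which leaves it with no settled direction, and KMT5C minus KMT5B was 0.68. Probe sets of this pair overlapped, since -0.13 in KMT5B lay above -0.50 in KMT5C. KMT5A read 0.010, -0.11, 0.22 and 0.29, a mean of 0.10 ± 0.18. Among 10 genes of H4K20 reading and KMT5A turnover, the median was -0.017 and 1 was at least 2-fold lower, against 1.44% of all genes. That gene was DTL, which directs a ubiquitin ligase to KMT5A, at -2.58 ± 0.96 over 2 probe sets. SKP2, of another ubiquitin ligase, lay at 0.56 ± 0.18 over 3 probe sets. CUL4A lay almost as far from 0, at -0.56 ± 0.45 over 4 probe sets, while CUL4B lay at 0.15 ± 0.26 over 4 and DDB1 at 0.23 on 1. The transcript of KMT5A thus read near 0 beside a lower transcript of DTL; KMT5A protein was not measured.

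H3K36 is trimethylated by SETD2 behind elongating RNA polymerase and mono- and dimethylated by the NSD enzymes. All 5 measured genes of this group (6 listed) lay below 0, against 46.3% of all genes, with a median of -0.15. However, 4 of them lay within 0.22 of 0, and by medians over probe sets NSD2 and NSD3 turned to 0.012 and 0.023. SETD2, the writer of the trimethyl mark that KDM4A erases, lay at -0.039 ± 0.069 over 3 probe sets, with its probe sets on both sides of 0. SMYD2, which methylates H3K36 and also the proteins p53 and RB1, was 1.57-fold lower by its mean (-0.65 ± 0.87). Its 2 probe sets did not give one answer: the first read 0.63 in the control and -0.63 in the knockdown, a difference of -1.26, and the other read 0.017 and -0.017, a difference of -0.034. The first can match several transcripts, and without it SMYD2 would not be among the lower genes. NSD1, NSD2 and NSD3 lay at -0.12 ± 0.43 (4 probe sets), -0.22 ± 0.46 (6) and -0.15 ± 0.50 (6). In NSD2, the enzyme overexpressed by a translocation in myeloma, 1 probe set read -0.98 and another -0.60, while the other 4 lay between -0.066 and 0.13. In NSD3, 1 probe set read -1.05 and the others lay between -0.39 and 0.36. The mean of each NSD gene was smaller than the spread between its probe sets.

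H3K9 methyltransferases lay around 0, with 4 of 7 below it, against 46.3% of all genes, and a median of -0.047. SUV39H1 and SUV39H2 trimethylate H3K9 at pericentromeric heterochromatin. SUV39H1 lay at -0.065 on its only probe set. SUV39H2 read -0.74 and 0.16, a mean of -0.29 ± 0.64. EHMT1 and EHMT2, which pair with each other to dimethylate H3K9 in euchromatin, lay on opposite sides of 0. EHMT1 read 0.51, 0.35 and 0.11 (mean 0.32 ± 0.20) and EHMT2 read -0.091, -0.32 and 0.062 (mean -0.12 ± 0.19). The lowest value of EHMT1, 0.11, lay close to the highest of EHMT2, 0.062. EHMT2 minus EHMT1 was -0.44. Leaving out _s_at and _x_at probe sets brought that to -0.13. SETDB1, recruited by TRIM28 to silence retroelements, lay at 0.083 ± 0.033 over 2 probe sets and SETDB2 at -0.047 ± 0.079 over 4. PRDM2 lay at 0.20 ± 0.17 over 4, with 3 of them above 0. The 12 partner genes of H3K9 methylation had a median of -0.0057 and none was 1.5-fold apart, against 4.3% higher and 4.38% lower of all genes. The farthest were MPHOSPH8, a subunit of the HUSH silencing complex, at -0.40 ± 0.71 over 4 probe sets, and TRIM28 at -0.21.

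H3K4 methyltransferases lay around 0, with 6 of 8 above it, where 46.3% of all genes lay below 0. Their median was 0.030, close to the 0.020 over all genes. It was 0.17 when _s_at and _x_at probe sets, which can match several transcripts, were left out. KMT2B, which works at promoters with menin, lay at 0.33 ± 0.18, reading 0.20 and 0.46 on its 2 probe sets. It was the highest member by means over probe sets, next to EHMT1 at 0.32, but not by medians, where EHMT1 lay at 0.35. Its relative KMT2A lay at 0.080 ± 0.44, with 9 probe sets that ran from -0.81 to 0.52. KMT2C and KMT2D place the monomethyl mark at enhancers. KMT2D lay at 0.11 ± 0.25 over 5 probe sets and KMT2C at -0.26 ± 0.62 over 5, where 1 probe set read -1.31 and the other 4 lay between -0.22 and 0.33; its mean turned to 0.20 when _s_at and _x_at probe sets were left out. SETD1A and SETD1B, the catalytic subunits of the COMPASS complexes that place most trimethylated H3K4, read 0.020 and 0.021 on 1 probe set each. SMYD3 lay at 0.039 on 1 probe set and SETD7, a monomethyltransferase, at -0.21 ± 0.16 over 2. Of 14 COMPASS partners, 7 lay below 0, with a median of -0.013. PSIP1, which tethers KMT2A and menin to chromatin, lay at -0.83 ± 0.056 over 3 probe sets, and ASH2L, a core subunit, at -0.29. PSIP1 was the only partner at least 1.5-fold apart, against 4.3% higher and 4.38% lower of all genes.

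DOT1L, the H3K79 enzyme and the only member without a SET domain, lay at 0.19 ± 0.043, reading 0.14, 0.21 and 0.22 on its 3 probe sets. These lay close together and all above 0. The 6 genes of its partner list had a median of 0.15, with 4 above 0. None was 1.5-fold apart, against 4.3% higher and 4.38% lower of all genes. MLLT3 lay at 0.34 ± 0.39 over 3 probe sets and MLLT1 at 0.32 ± 0.20 over 2.

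Of the members with no settled histone target, 6 of 7 lay below 0, against 46.3% of all genes, with a median of -0.15. SETD6, known for methylating the NF-kappa B subunit RELA, was 1.59-fold lower (-0.67 ± 0.15). Its probe sets read 0.28 and 0.39 in the control and -0.28 and -0.39 in the knockdown, differences of -0.56 and -0.78. Of the 3 lower members with 2 or more probe sets, its spread was the smallest. SETD6 overlaps CNOT1 in the RefSeq annotation, and CNOT1 lay at 0.031 over 3 probe sets. KMT2E, whose SET domain is thought to be inactive, read -0.40, -0.35 and 0.33 (mean -0.14 ± 0.41, and 0.33 when _s_at and _x_at probe sets were left out). SETD3, the actin histidine methyltransferase, lay at -0.19 ± 0.25 over 2 probe sets, SETD4 at -0.046 ± 0.037 over 3 and SETD5 at -0.15 ± 0.30 over 5. SMYD4 and SMYD5 read -0.26 and 0.19 on 1 probe set each.

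**Figure D2:**
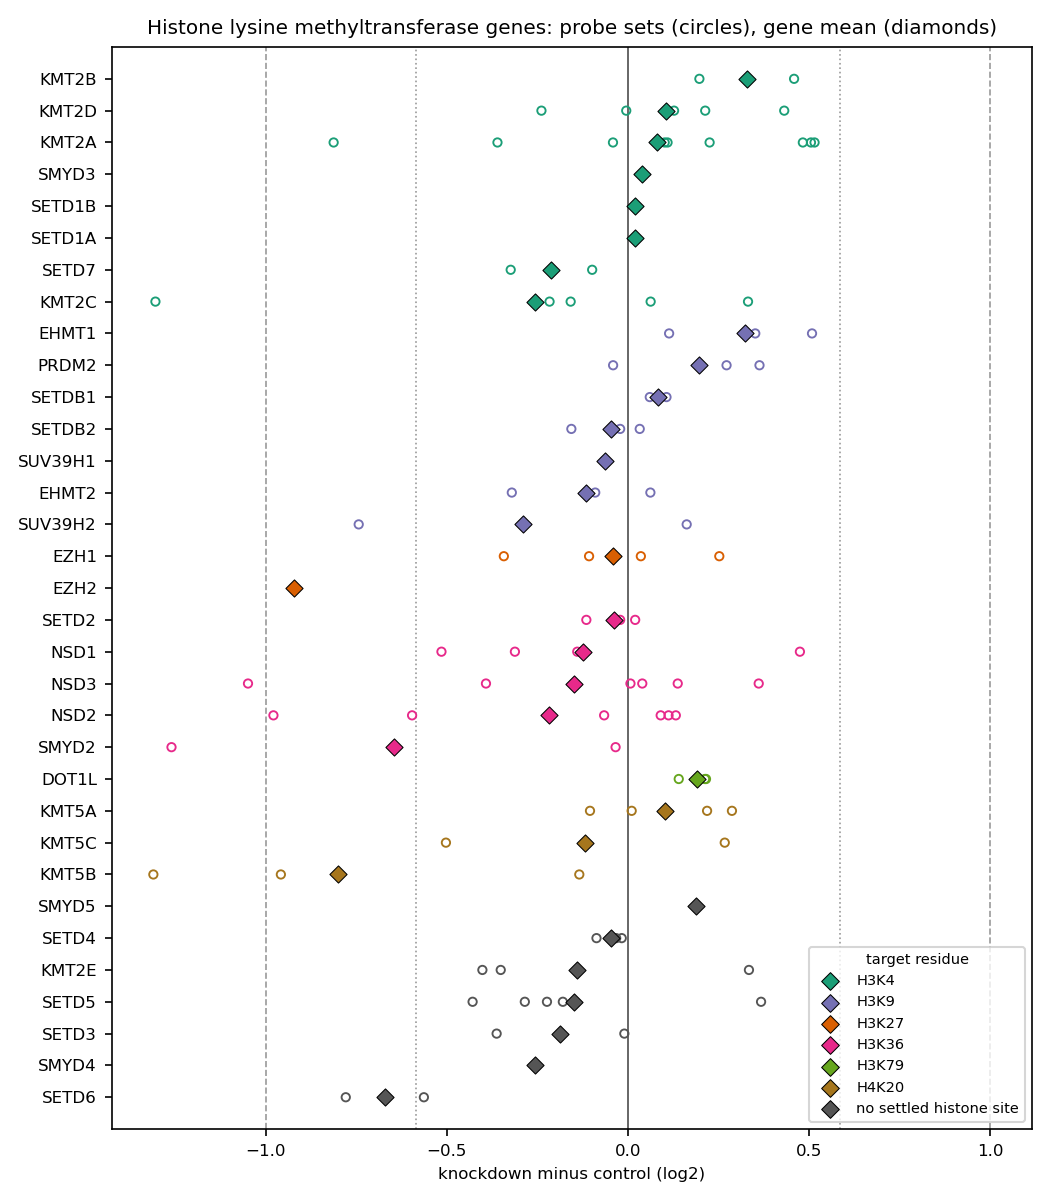
Each open circle is 1 probe set and each diamond the mean of a gene, as knockdown minus control (horizontal axis, log2), for the 33 measured genes ordered by target residue; dotted and dashed lines mark 1.5-fold and 2-fold. The 2 probe sets of SETD6 lie close together at -0.56 and -0.78, whereas those of SMYD2 lie at -1.26 and -0.034 and those of KMT2A run from -0.81 to 0.52.

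Probe sets of a gene agreed less often than not. Where a member had several probe sets (26 members), all of them lay on the same side of 0 in 10 (38.5%), 6 below and 4 above, against 50.3% of all such genes, and 16 had probe sets on both sides. The 2 shares were not matched for the number of probe sets, which was larger per gene among the members. The more probe sets a gene has, the less readily all of them share a side. The pooled SD between probe sets was 0.38 for the members and 0.33 for all genes, and the mean exceeded its own SD in 9 of the 26. Taken singly, 4 of the 100 probe sets were at least 2-fold lower, against 2.39% of all probe sets with 1 gene, and none was 2-fold higher, against 1.48%. They belonged to KMT5B, KMT2C, SMYD2 and NSD3, and 3 of them were of the kinds that can match several transcripts (names ending in _s_at or _x_at). These single values were picked out after they had been seen.

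**Figure D3:**
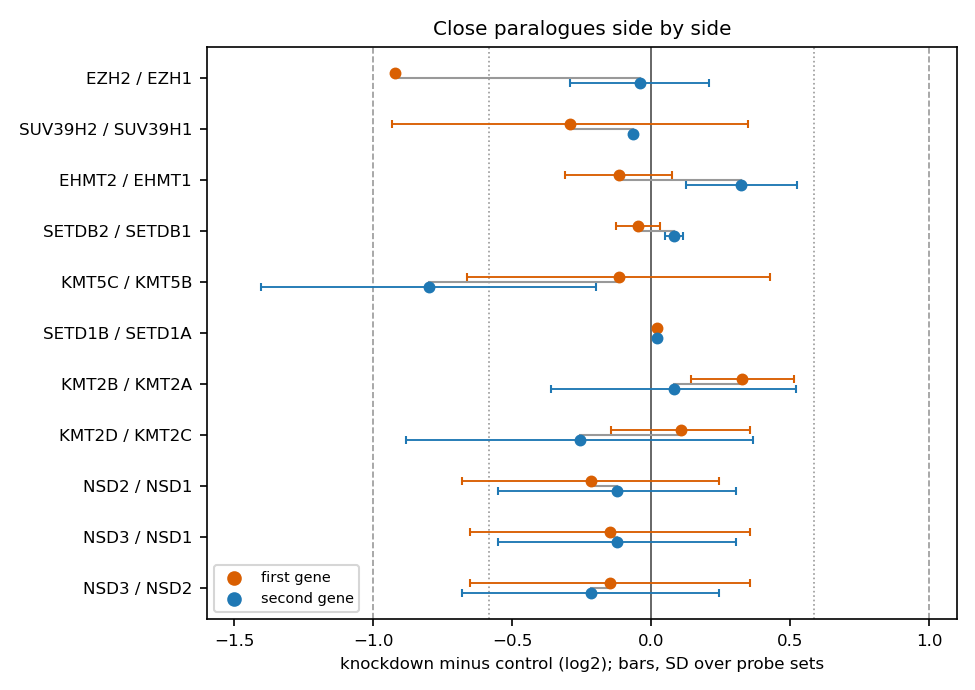
Gene differences (horizontal axis, log2, knockdown minus control) are drawn for 11 pairs of close paralogues, the first gene of each label in orange and the second in blue, with bars of 1 SD over probe sets where a gene has 2 or more. EZH2 at -0.92, with 1 probe set and no bar, lies away from EZH1 at -0.041. KMT5B at -0.80 lies below KMT5C at -0.12, but their bars overlap, as do those of the NSD genes.

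Among 11 pairs of close paralogues, the differences between partners, as means over probe sets, were largest for EZH2 and EZH1 and for KMT5C and KMT5B. KMT2D minus KMT2C was 0.36, KMT2B minus KMT2A 0.25, SUV39H2 minus SUV39H1 -0.23 and SETDB2 minus SETDB1 -0.13. SETD1B minus SETD1A was 0.00068. The NSD genes differed from each other by -0.095 (NSD2 minus NSD1), -0.026 (NSD3 minus NSD1) and 0.068 (NSD3 minus NSD2), well inside the spread between their probe sets. With _s_at and _x_at probe sets left out, KMT5C minus KMT5B was 0.22, KMT2B minus KMT2A 0.065 and EHMT2 minus EHMT1 -0.13. These kept their order but were smaller, whereas KMT2D minus KMT2C turned to -0.027. NSD2 minus NSD1 was then -0.47, and it turned to 0.24 with medians over probe sets.

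KDM4A aside, no gene was 2-fold apart in 3 lists of related enzymes outside the family. Of all genes, 1.16% were 2-fold higher and 1.44% lower, so lists this short would hold few or none. At 1.5-fold each list had 1 gene apart, CARM1 and PRDM4 higher and KDM2B lower, against 4.3% higher and 4.38% lower of all genes. Protein arginine methyltransferases, which methylate histones on arginine, had a median of 0.21 over 10 genes with 6 above 0; CARM1 lay at 0.84 on 1 probe set and PRMT9 at 0.47 on 1. Other SET domain genes had a median of 0.021 (13 of 16 measured; PRDM4 at 0.70 ± 0.093 over 2 probe sets, PRDM12 at -0.28). Demethylases of H3K4, H3K27 and H3K36, a list that leaves out KDM4A and its paralogues, had a median of 0.11 over 16 genes, with KDM2B at -0.59 and KDM1B at 0.55 ± 0.028 over 2 probe sets.

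**Figure D4:**
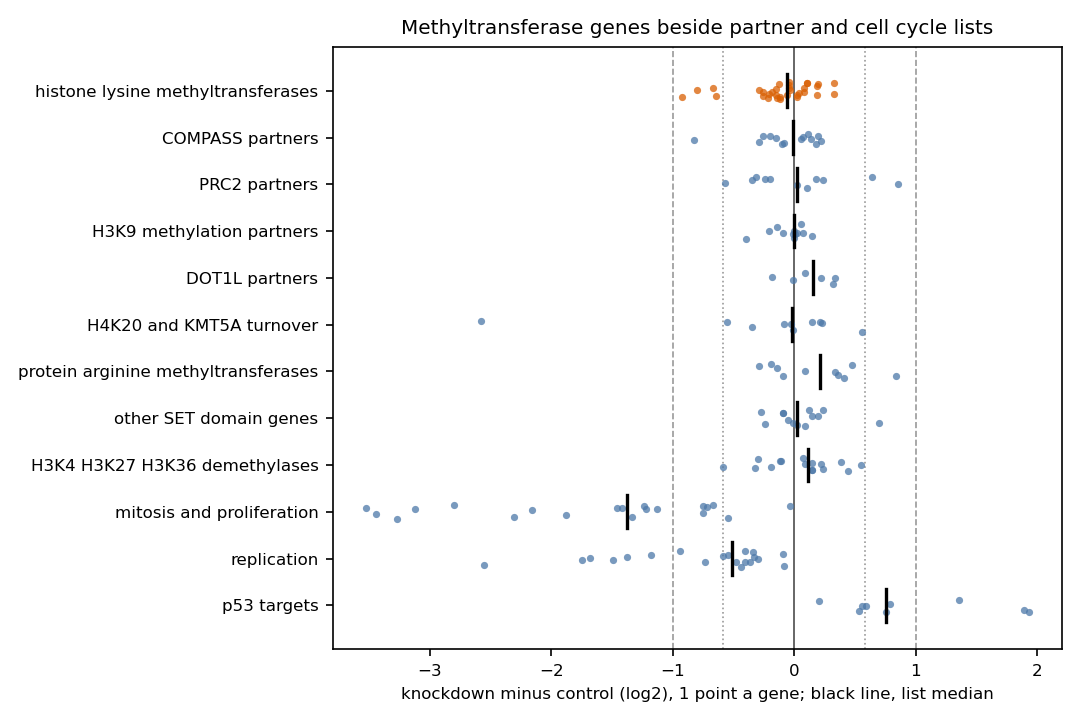
Every point is 1 gene (knockdown minus control, horizontal axis, log2), by list, with a black line at the list median; dotted and dashed lines mark 1.5-fold and 2-fold. The methyltransferase genes (median -0.065) and their partner lists cluster around 0, while the mitosis and replication lists lie lower (medians -1.38 and -0.51) and p53 targets higher (0.75).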

How the data were processed

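The authors deposited log-scale values, treated here as log2, for 1 control and 1 knockdown array, normalised by RMA, a multi-array average of probe intensities, per the submitters' processing notes, with no version stated. The values of each row sum to 0 within 1e-06, so levels and detection are lost. Nothing used here states the log base, the centring or a probe set filter; base 2 was assumed since RMA returns such values, and folds depend on it. Probe sets were named through the platform annotation: 34880 had 1 gene, 1619 several and 8131 none here, and 42 were AFFX controls. All 33 measured symbols matched RefSeq (GRCh38.p14) by Entrez identifier. A gene's difference is the mean of knockdown minus control over its probe sets. With 1 array a group no test was run; genes were called by size, 2-fold and 1.5-fold.

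Every measured member was named, and of each partner or marker list the 2 genes farthest from 0. EED, SUZ12, RBBP4, CNOT1, CUL4A, CUL4B and DDB1 were added after their values were seen. Members and lists were chosen with earlier results of these data known. Alternatives were medians over probe sets, leaving out _x_at and _s_at probe sets, subtracting the median difference, genes with 2 or more probe sets, and size rules of 1.5-fold and 3-fold. The calculation was tested on simulated data. Python 3.11.15, numpy 2.4.6, pandas 2.3.3 and matplotlib 3.10.9 were used. Coordinates are given for promoters alone.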

Additional observations from a re-analysis of the deposited data

Results flagged for a closer look

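A probe set shared by KMT2C, BAGE2 and BAGE5 entered no gene value because it names several genes, and it read higher in the knockdown by 0.73, while KMT2C itself lay at -0.26 over its own 5 probe sets, or at 0.20 without _x_at and _s_at probe sets. It is listed because the signal lies outside the gene comparisons. With no second array in either group, the difference was not tested.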

How the results depend on the processing

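With 1 array a group, no replicate could be left out, and no paired analysis was possible because the groups share only 1 number and no test was run. The 1.5-fold rule gave 4 lower members in place of 0 at 2-fold, by its own construction. The count of 4 at 1.5-fold was kept with medians over probe sets, with the median difference subtracted and when every probe set had to lie below 0 (the last and all alternatives at 1.5-fold were chosen after seeing the data). These settings could hardly change the 4 genes. The median equals the mean for EZH2, with 1 probe set, and for SETD6 and SMYD2, with 2 each. The subtraction shifted every gene alike, by 0.014, and SMYD2 stayed below 0 on a probe set at -0.034. The count was 3 of 29 measured members (4.62% of all genes) without _x_at and _s_at probe sets, where EZH2 had no probe set left, SMYD2 read -0.034 and NSD2 entered at -0.60, and 3 of 26 (5.02% of all genes) once single-probe-set genes were dropped. No member reached 2-fold under any of these settings. Without _x_at and _s_at probe sets the group medians were 0.17 (H3K4), -0.066 (H3K27) and -0.50 (H4K20), and the paralogue differences 0.22 (KMT5C minus KMT5B), -0.027 (KMT2D minus KMT2C), -0.13 (EHMT2 minus EHMT1), 0.065 (KMT2B minus KMT2A), -0.47 (NSD2 minus NSD1) and 0.47 (NSD3 minus NSD2). With medians over probe sets, NSD2 minus NSD1 was 0.24 and NSD3 minus NSD1 0.25. Among genes with 2 or more probe sets the H3K27 median was -0.041, which is EZH1 alone. The cause of the other changes was not tested. Of 95 single gene values recomputed, 93 moved by less than the SD between probe sets. Much of this was fixed in advance. The subtraction shifted every gene alike, and a median over 1 or 2 probe sets equals the mean. A gene with no _x_at or _s_at probe set could not move when those were left out. EHMT1 moved to 0.11 and KMT2E to 0.33 without _x_at and _s_at probe sets. The sign turned in 4: KMT2E and KMT2C (to 0.20) in that setting, and NSD2 (0.012) and NSD3 (0.023) with medians. Signal over background cannot be read from centred values, so dim probe sets could not be set aside.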
